A study of Rattus norvegicus with 2 samples.

Results

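The microRNAs (miRNAs) described here are the passenger strands of rat miRNA hairpins, written with a star in the array's older naming, as in miR-378*. They were chosen by name alone: every rat miRNA of the array whose name ends in a star, which gave 58 of the 350 rat miRNAs on the array. The 58 stars are read by 197 of the 938 rat probes, on 1160 spots, with 20 spots for each star and 5 to 20 spots for each probe.

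RNA from squamous cell carcinoma of the rat tongue was set against RNA from normal rat tongue, with 1 array labelled as tumour and 1 labelled as normal. Per the labels, the tumour group were male Sprague-Dawley rats, 6 to 7 weeks old, given the carcinogen 4NQO at 0.02 g/l every day. The normal group were male rats of the same strain and age that received distilled water, and each group began with 20 rats. Tissue was taken when week 36 ended, and the RNA came from 7 tumours and 7 normal tongues. The sources used here do not give whether these samples were pooled, and the labelling kit that the labels name is one for messenger RNA. With 1 array in each group there was no replicate check and no test. Every SD below is a spread between spots of 1 array, and every SE of a ratio combines such spreads from both arrays. Every direction holds only as far as the array labels do. The arrays give a reason to keep this in view. The guide miR-21, widely reported as raised in squamous cell carcinoma, was 9.60-fold lower on the array with the tumour label, a log2 ratio of -3.26, or -2.34 without scaling. The muscle guide miR-1 was 13.2-fold higher there, and whether the labels are the right way round was not tested.

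A miRNA hairpin is cut by Drosha and then Dicer into a short duplex with an arm from each side of the stem. One strand, the guide, is loaded into an Argonaute protein and pairs with target messages mainly through its seed, bases 2 to 8. The other strand, the passenger or star, is usually discarded and degraded, so it is commonly found at much lower levels than its guide. Some strands named as stars are nevertheless loaded and act on targets of their own, and for some hairpins, miR-140 among them, later sequencing in many tissues found the strand first named the star to be the more abundant one.

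The strands below are those of the 4 hairpins whose star was detected, shown because the 3 stars with a RefSeq sequence each carry a seed unlike that of their guide. Sequences are RefSeq mature sequences of rat assembly GRCr8, 5′ to 3′, with the seed in capitals. RefSeq had a mature sequence for 52 of the 58 stars, and for miR-30e* none is printed.
miR-378*: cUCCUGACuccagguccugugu
miR-378: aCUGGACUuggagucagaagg
miR-30a*: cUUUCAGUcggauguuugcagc
miR-30a: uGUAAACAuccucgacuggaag
miR-30e: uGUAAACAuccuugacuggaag
miR-140*: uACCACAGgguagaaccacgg
miR-140: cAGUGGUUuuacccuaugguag

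The guides miR-30a and miR-30e have the same seed, and none of the 3 star seeds shown was found in another of the 52 stars. The star miR-30e* is not among the 52, and the seed letters of miR-30a* also occur in the Mir30e hairpin printed next. In GRCr8, miR-378* lies on the minus strand at chr18:57128962-57128983, within the span of Ppargc1b, the gene of a coactivator of energy metabolism. The star miR-30a* lies on the plus strand at chr9:33233987-33234008. The star miR-140* lies on the plus strand at chr19:52375353-52375373, within the span of Wwp2, the gene of a ubiquitin ligase. The miR-30e hairpin lies on the minus strand at chr5:139637450-139637541, within the span of Nfyc, the gene of a subunit of the transcription factor NF-Y. Whether these positions are exonic or intronic was not worked out.

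The hairpins show where the star sits opposite its guide. In the hairpins of miR-140 and miR-30a the capitals mark the mature star, and in that of miR-30e they mark the bases complementary to the longest star probe.
Mir140: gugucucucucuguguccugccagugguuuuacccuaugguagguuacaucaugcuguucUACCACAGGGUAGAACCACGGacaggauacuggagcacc
Mir30a: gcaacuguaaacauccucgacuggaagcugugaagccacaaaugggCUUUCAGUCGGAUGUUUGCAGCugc
Mir30e: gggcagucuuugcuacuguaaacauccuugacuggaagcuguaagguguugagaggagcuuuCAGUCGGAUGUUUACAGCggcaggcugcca

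All 3 of these stars come from the 3′ arm, after the guide. The stars miR-30a* and miR-30e* are near copies, as their array probes of 17 bases show. Counted from 1 at the probe's 5′ end, these probes differ at a single base, C5T from the miR-30a* probe to the miR-30e* probe, given in capitals.
miR-30a* probe: gctgCaaacatccgact
miR-30e* probe: gctgTaaacatccgact
How far either RNA binds the other's probe was not tested, so the signals of miR-30a* and miR-30e* may not be separate measurements.

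Few stars gave a signal in either tissue. A probe counted as detected when over 50% of its spots carried the scanner software's flag for well above background, and a miRNA where at least 1 of its probes was. On the tumour-labelled array 4 of the 58 stars were detected, 6.90%, and these were miR-378*, miR-30a*, miR-30e* and miR-140*. Over all 350 miRNAs the share detected on that array was 29.7%, and among the 292 miRNAs without a star 100 were detected, 34.2%. On the normal-labelled array 1 star was detected, miR-140*, which is 1.72% of the 58, against 25.1% of all miRNAs and 87 of the 292 without a star, 29.8%. The star miR-140* was thus the 1 star detected on both arrays, where 24.3% of all miRNAs were. The other 3 were detected on the tumour-labelled array alone, 3 of 58, close to the background of 5.43%, and 54 stars, 93.1%, were detected on neither array.

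**Figure D1:**
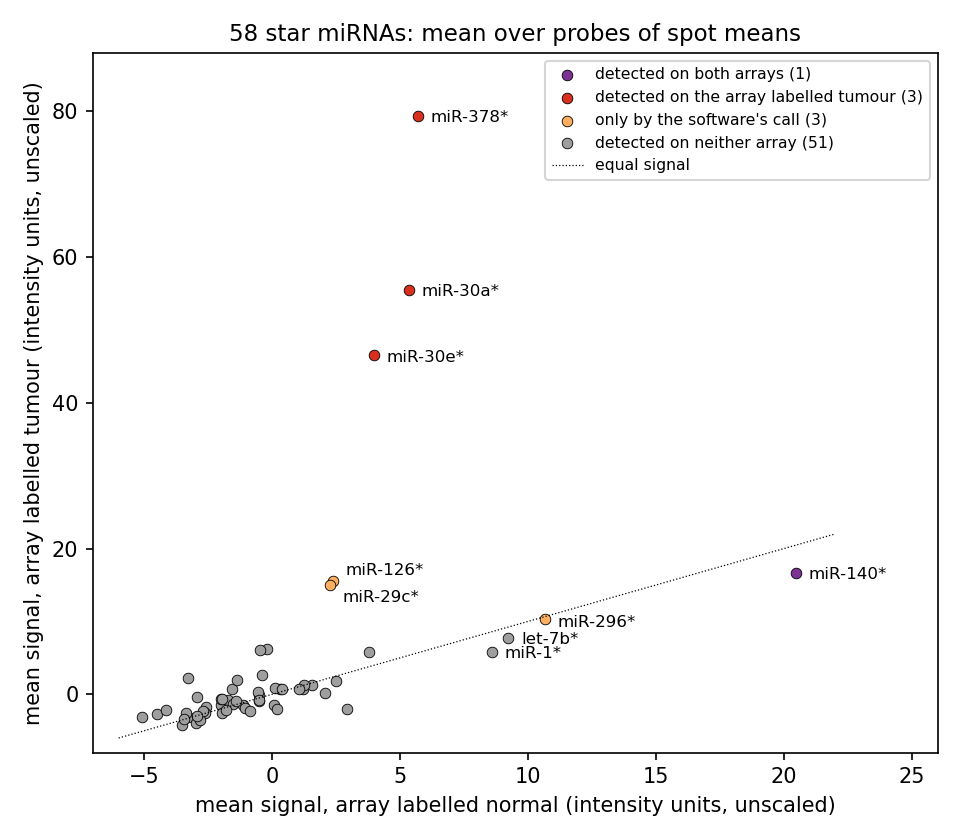
Mean signal of each of the 58 stars on the normal-labelled array (horizontal axis) and on the tumour-labelled array (vertical axis), both in unscaled intensity units, as the mean over a star's probes of the spot means. miR-378*, miR-30a* and miR-30e* stand at 79.4, 55.4 and 46.5 units on the tumour-labelled array against 5.69, 5.35 and 3.98 on the normal-labelled array, miR-140* stands at 16.7 and 20.5, and most stars lie near 0 on both.

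The star of the muscle-expressed, metabolic hairpin miR-378 was the brightest star. Its guide miR-378 is abundant in skeletal muscle and brown fat, and the star itself has been described as a regulator of oxidative metabolism. On the tumour-labelled array the miR-378* probe of 17 bases read 57.1 ± 3.74 intensity units (SD, n = 10 spots) and the probe of 18 bases read 102 ± 4.52 (SD, n = 10). The same probes read 2.56 ± 3.93 and 8.82 ± 3.51 (SD, n = 10 each) on the normal-labelled array, and 0 of the 20 spots were well above background. The unscaled spots of the arrays did not overlap for either probe. The dimmest spots on the tumour-labelled array were 53.5 and 94.6 units, and the brightest on the normal-labelled array were 10.3 and 15.7. Such separation, here and below, is not particular to these stars, since the arrays' scaling factors differ 1.89-fold. The guide let-7b, at a scaled log2 ratio of -0.01, had no overlap of unscaled spots on either probe. The share of all probes that separate was not counted, and spots of 1 array are not replicates.

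Since miR-378* was detected on 1 array, its ratio has only a lower bound. As scaling factor each array had the 75th percentile of the 140 probes that both arrays detected, 525.6 units for the tumour-labelled array and 277.5 for the other, and the bound sets the star's scaled signal against the dimmest detected probe of the other array. That dimmest probe was at 18.3 units on the tumour-labelled array and 18.2 on the normal-labelled array. By this measure miR-378* was at least 2.21-fold higher on the tumour-labelled array, or at least 4.18-fold higher without scaling. The guide miR-378 was detected on both arrays and was 3.61-fold higher on the tumour-labelled array, a log2 ratio of 1.85 (spot SE 0.05). The guide's probes read 176.8 and 300.2 units on the tumour-labelled array and 25.9 and 43.8 units on the normal-labelled array. Star and guide of this hairpin were thus both brighter on the same array, and the star's bound lies below the guide's ratio, so the data do not say whether the arms differ.

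The stars of 2 hairpins of the miR-30 family gave the next signals. miR-30 guides are widely expressed and are known as brakes on epithelial-mesenchymal transition. The miR-30a* probes of 16 and 17 bases read 42.0 ± 1.46 (SD, n = 7) and 68.9 ± 5.02 units (SD, n = 8) on the tumour-labelled array, with every spot well above background. They read 2.70 ± 2.11 (SD, n = 10) and 8.01 ± 3.46 units (SD, n = 9) on the normal-labelled array, with no spot well above background. The dimmest spots of the tumour-labelled array, 39.4 and 57.7 units, lay above the brightest of the normal-labelled array, 6.69 and 12.3.

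For miR-30a* the lower bound was 1.56-fold higher on the tumour-labelled array, or 2.95-fold without scaling. The guide miR-30a was 3.85-fold higher there, a log2 ratio of 1.94 (spot SE 0.05). Its brighter probe read 435.5 units on the tumour-labelled array and 59.8 on the normal-labelled array, while its dimmer probe, at 143.1 and 15.9 units, was detected on the tumour-labelled array alone. Again the star's bound is under the guide's ratio.

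The star miR-30e* rested mainly on its longer probe. The probe of 18 bases read 72.6 ± 3.58 units (SD, n = 10) on the tumour-labelled array and 7.78 ± 3.08 (SD, n = 7) on the normal-labelled array. The probe of 17 bases read 20.4 ± 2.91 (SD, n = 9) and 0.18 ± 2.64 units (SD, n = 10). This shorter probe lies just inside the detection rule, with 6 of 9 spots well above background on the tumour-labelled array, and on the longer probe all 10 were.

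For miR-30e* the lower bound was 1.11-fold with scaling and 2.11-fold without it. Each bound is a mean on the log2 scale over the star's detected probes, so the dim shorter probe lowers this one. With the same scaled detection limit on both arrays, which leaves out the shorter probe, the bound was 2.10-fold. The guide miR-30e was 3.88-fold higher on the tumour-labelled array, a log2 ratio of 1.96 (spot SE 0.04), with a brighter probe at 232.6 and 31.6 units. The spots of miR-30e* did not overlap between arrays on either probe: its dimmest spots on the tumour-labelled array were 16.5 and 68.8 units and its brightest on the normal-labelled array 4.13 and 10.48.

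The star of miR-140, a hairpin best known from cartilage, was the exception. Its probe of 15 bases read 29.8 ± 4.24 units (SD, n = 10) on the tumour-labelled array and 33.9 ± 2.90 units (SD, n = 9) on the normal-labelled array, with every spot well above background on both. These spots overlapped, from 23.5 to 37.7 units on the tumour-labelled array and from 28.6 to 36.6 on the normal-labelled array. The probe of 14 bases, 1 base shorter, was not detected on either array, at 3.61 ± 3.65 and 7.06 ± 2.88 units (SD, n = 10 each). The call for miR-140* therefore rests on 1 probe.

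After scaling, miR-140* was 2.15-fold lower on the tumour-labelled array, a log2 ratio of -1.11 (spot SE 0.08), just past the 2-fold rule of size used here. Over the 85 miRNAs that both arrays measured, 22.4% lay 2-fold or more lower there and 12.9% lay 2-fold or more higher, and their median log2 ratio was -0.46. Without scaling the log2 ratio of miR-140* was -0.18, so most of the difference comes from the scaling factors, which differ 1.89-fold, 0.92 on the log2 scale. The guide miR-140 had a log2 ratio of -0.73 (spot SE 0.05) with scaling and 0.19 without, from 1 detected probe at 33.6 and 29.4 units. The star's log2 ratio minus the guide's was -0.38 (SE 0.09 over spots), a difference that a common scaling factor leaves unchanged. This is the 1 hairpin with a star for which both arms were measured on both arrays.

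**Figure D2:**
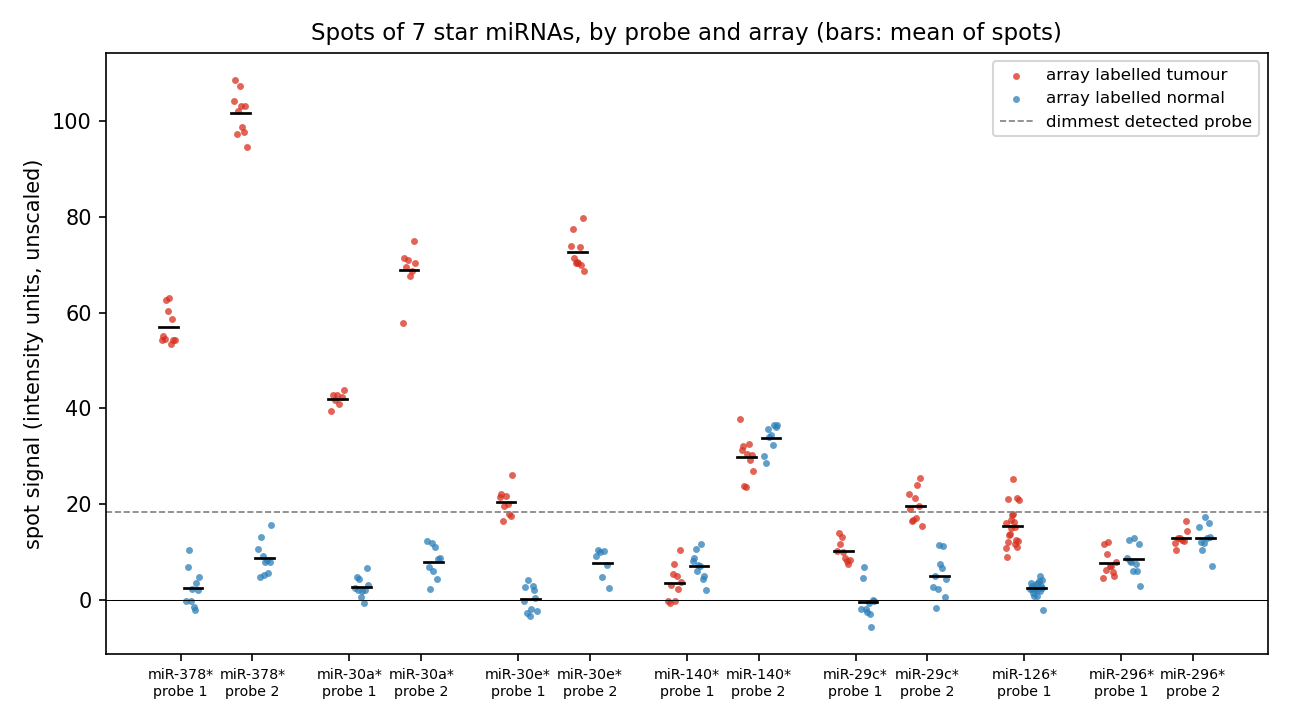
Signal of every spot used (vertical axis, unscaled intensity units) for each probe of 7 stars (horizontal axis, probe 1 being the shorter), on the tumour-labelled array in red and the normal-labelled array in blue, with bars at the mean of spots and a dashed line at the dimmest detected probe of the arrays. The spots of miR-378*, miR-30a* and miR-30e* are separate between the arrays, those of miR-140* overlap, and miR-29c* and miR-126* lie near the dashed line on the tumour-labelled array. Such separation is not particular to these stars, and the share of all probes that separate was not counted.

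Among the undetected stars, miR-29c* and miR-126* came closest to detection, both on the tumour-labelled array. The guide of miR-29c* belongs to a family known to repress collagens and other matrix genes, and miR-126 is the miRNA of endothelial cells, transcribed with Egfl7. Their strands, with the seed in capitals, are shown as the stars just outside the rule.
miR-29c*: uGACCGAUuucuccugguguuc
miR-29c: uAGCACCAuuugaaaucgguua
miR-126*: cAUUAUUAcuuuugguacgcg
miR-126: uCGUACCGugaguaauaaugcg

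The miR-29c* probe of 21 bases read 19.7 ± 3.40 units (SD, n = 10) on the tumour-labelled array, with 5 of 10 spots well above background, exactly 50%. It read 4.97 ± 4.32 units (SD, n = 10) on the normal-labelled array, with 0 of 10. Its probe of 20 bases read 10.2 and -0.44 units. Before scaling, the spots of the longer probe did not overlap between arrays. Their lowest value was 15.4 on the tumour-labelled array and their highest was 11.4 on the other. That gap is smaller than the 1.89-fold difference of the scaling factors, so after scaling these spots overlapped. The guide miR-29c was 4.05-fold higher on the tumour-labelled array, a log2 ratio of 2.02, close to those of miR-30a and miR-30e.

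The star miR-126* has a single probe, of 21 bases. It read 15.5 ± 4.24 units (SD, n = 20) on the tumour-labelled array, with 4 of 20 spots well above background, and 2.37 ± 1.54 units (SD, n = 19) on the normal-labelled array, with none. The lowest spot of the tumour-labelled array was 8.93 units and the highest of the normal-labelled array 5.01. These spots did not overlap before scaling, but they did after it, since the scaling factors differ 1.89-fold. The guide miR-126 had a log2 ratio of 0.68.

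Every probe mean of the remaining stars named by the rule lay below the dimmest detected probe of either array. The star let-7b* had 1 of 20 spots well above background on the tumour-labelled array, with probe means of 5.95 to 9.33 units there and 8.90 to 9.64 on the normal-labelled array. Its guide let-7b, of the family that represses growth genes such as Ras and Hmga2, had a log2 ratio of -0.01. On the normal-labelled array, miR-101a*, miR-1* and miR-29b-1* had 1 spot well above background each. For miR-101a* that spot was at 49.6 units and for miR-29b-1* at 28.7, while the means over all their other probes lay between -4.64 and 1.61 units.

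Of the 1126 star spots used on the tumour-labelled array 72 were well above background, 6.39%, and of the 1119 on the normal-labelled array 12 were, 1.07%. Without the spots of detected stars these were 11 of 1052, 1.05%, and 3 of 1100, 0.273%. Negative control spots without outliers gave 0 of 655 and 0 of 642. With outliers kept, 6 of 672 and 17 of 672 negative control spots were well above background, so the 0 rests on leaving outliers out. The mean signals of the 54 stars undetected on the tumour-labelled array ran from -4.24 to 15.5 units with a median of -0.84, and 50 of them had no spot well above background. The 57 undetected on the normal-labelled array ran from -5.10 to 10.7 units with a median of -0.85, and 54 had no such spot. The medians lie below the negative controls, 0.61 ± 3.04 units (SD, n = 655 spots) and 1.67 ± 3.02 (SD, n = 642), so for most stars the arrays give an upper limit near the dimmest detected probe and no level.

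Grouped by the known role of the guide, detected stars fell in 3 of the 10 groups. Of the muscle group's 2 stars, miR-378* was detected on the tumour-labelled array, while miR-1* was detected on neither array, at mean signals of 5.85 and 8.599 units. Of the 5 miR-30 stars, miR-30a* and miR-30e* were detected on the tumour-labelled array. The others were miR-30c-1* at 0.34 and -0.55 units on the tumour-labelled and normal-labelled arrays, miR-30c-2* at 6.03 and -0.49, and miR-30d* at -0.87 and -1.41. Of the 8 stars whose guides belong to mesenchyme, cartilage and vessel, miR-140* was detected on both arrays, and the guides of all 8 were detected on both.

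In the other groups no star was detected on either array. The 4 let-7 stars and the 4 miR-29 stars gave none, although their guides were detected on both arrays. The 2 stars of leukocyte and inflammation guides, miR-21* and miR-181a*, gave none, and both guides were detected on both arrays. The 4 stars of proliferation clusters gave none, with guides detected for 3 of the 4 on each array. By matching name, the 8 stars of nerve guides had detected guides for 2 and 1 of them, and the 6 of the imprinted Dlk1-Dio3 region for 1 and 0. The nerve counts leave out miR-125b*, which had no guide of matching name, although miR-125b-5p was detected on both arrays. The group of other guides held 15 stars, with guides detected for 6 and 5. No star of an epithelial guide is on this array.

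By this detection rule, no star with a guide on the array was detected where its guide was not. Of the 58 stars, 57 had a guide of matching name on the array, through 54 distinct guides. For miR-125b* there was none of that name, but miR-125b-5p was on the array and was detected on both arrays. The counts of stars with their guides leave miR-125b* out. Guides were detected for 37 stars on the tumour-labelled array and for 34 on the normal-labelled array. Of these pairs both arms were detected in 4 of 37, 10.8%, and in 1 of 34, 2.94%. As a reference, 31 hairpins are on the array with both arms under names without a star: of those with an arm detected, both were in 1 of 9, 11.1%, and 1 of 8, 12.5%. That hairpin was miR-199a on both arrays, with log2 ratios of -1.56 for miR-199a-5p and -0.60 for miR-199a-3p, a difference of -0.95 (spot SE 0.04).

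The stars detected were not those of the brightest guides. Ranked by their brightest probe among the 34 guides detected on the tumour-labelled array, miR-1 was first, followed by miR-23a, let-7b, miR-22 and miR-21, and none of their stars was detected. The guides of detected stars ranked 14 for miR-30a, 16 for miR-378, 20 for miR-30e and 31 for miR-140. The guide miR-1 read 7714 units on its brightest probe on the tumour-labelled array, and the 4 probes of miR-1* read 3.75 to 7.42. On the normal-labelled array miR-21 was brightest, at 7242 units, and its star had a mean of 2.91 units, while miR-140 ranked 28 of 31. A probe's own sequence sets its brightness along with the RNA, so these ranks describe signals and not amounts.

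Of the 4 stars detected on the tumour-labelled array, 3 had guides measured at least 2-fold higher there. Among these 3, miR-30a* and miR-30e* may not be separate measurements. The 30 guides measured on both arrays had log2 ratios from -3.26 to 3.72 with a median of 0.35, against -0.46 over all 85 measured miRNAs. By 2-fold or more, 6 of them were higher and 3 lower. The higher guides belong to 7 stars, of which 3 were detected on the tumour-labelled array and 0 on the normal-labelled array. The 4 others were miR-1*, miR-29c*, miR-30c-1* and miR-30c-2*. The 3 stars with lower guides, miR-21*, miR-7a* and miR-99b*, were detected on neither array, also not on the normal-labelled array where these guides were brighter after scaling. Of the 23 stars whose guide lay within 2-fold, 1 was detected on the tumour-labelled array, miR-140*. The guides miR-101a, miR-136, miR-204 and miR-338 were detected on the tumour-labelled array alone, and miR-193 on the normal-labelled array alone. They have no ratio and are outside these counts, and none of their stars was detected.

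**Figure D3:**
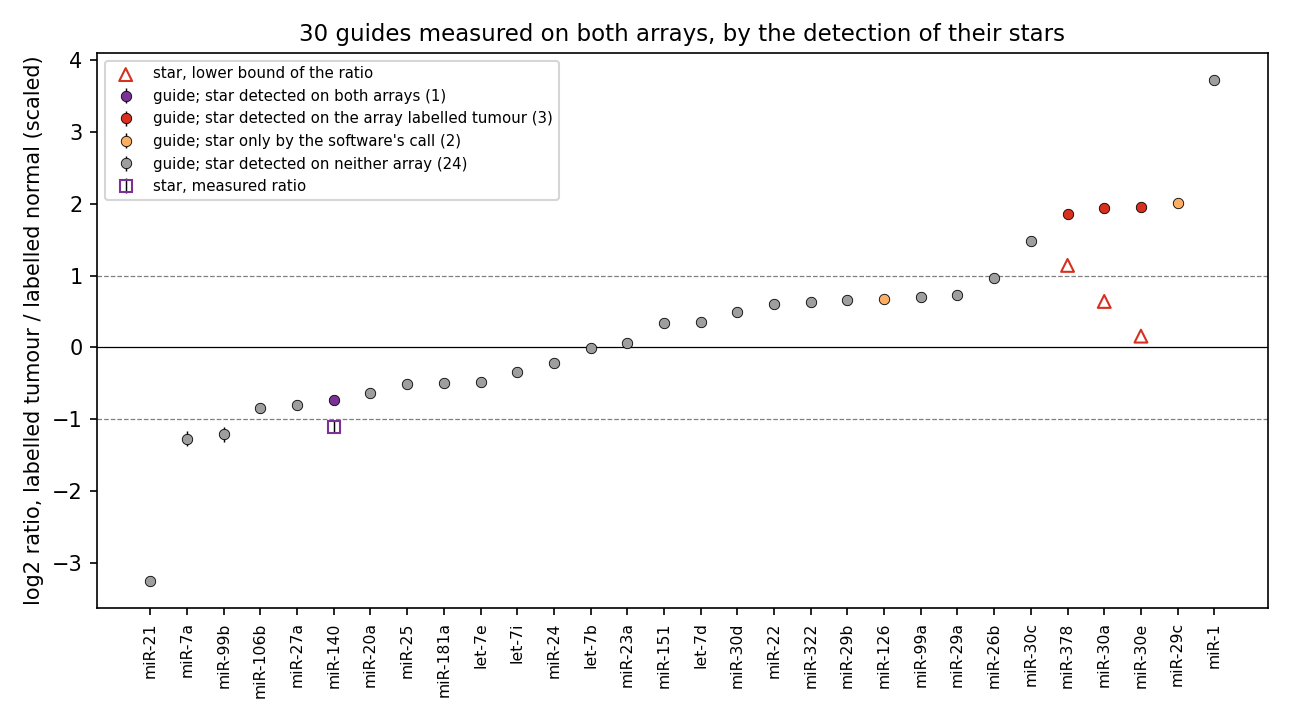
Log2 ratio, tumour-labelled array over normal-labelled array after scaling (vertical axis), of the 30 guides measured on both arrays in order of ratio (horizontal axis), coloured by the detection of their stars, with bars of 1 spot SE, open triangles for the lower bounds of stars and an open square for miR-140*. The guides of miR-378*, miR-30a* and miR-30e* lie at 1.85, 1.94 and 1.96, each star's bound lies below its guide, and miR-140* lies at -1.11 under its guide at -0.73.

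Skeletal muscle markers moved with miR-378*, miR-30a* and miR-30e*. All 4 muscle miRNAs, miR-1, miR-133a, miR-133b and miR-206, were detected on both arrays, and 3 of 4 were at least 2-fold higher on the tumour-labelled array, with log2 ratios of 3.72, 2.53, 2.66 and 0.91. Their brightest probes summed to 16536 units on the tumour-labelled array and 1361 on the normal-labelled array. The part of these or the following markers in the signals of miR-378*, miR-30a* and miR-30e* was not tested, and in bulk tissue fewer cells of a type cannot be told from less RNA per cell. The epithelial markers of tongue, 2 of 2 for stratified and 5 of 5 for general epithelium, were detected on both arrays. After scaling all 7 were lower on the tumour-labelled array, with log2 ratios from -1.26 for miR-141 to -0.24 for miR-203 and with miR-205, at -1.04, also past 2-fold, but without scaling 5 of the 7 were higher there. Leukocyte markers were detected for 3 of 4 on each array, with 1 higher and 2 lower by 2-fold or more on the tumour-labelled array, and summed to 263 and 317 units. Red cell markers were detected for 1 of 2, and that one, miR-451, was also higher on the tumour-labelled array, with a log2 ratio of 1.04. The red cell markers summed to 147.4 and 35.5 units, with miR-144 detected on neither array. The markers of liver, neurons and islets, miR-122, miR-124 and miR-375, were detected on neither array.

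The sequences of stars and guides differed at their first base. In 47 pairs with both arms in RefSeq, the star began with U in 7, 14.9%, and the guide in 28, 59.6%. Guides were counted per pair, so miR-24, miR-29b and miR-30c, which begin with U, were counted again for each of their stars. Stars began with C in 19 pairs and with A in 15, and guides in 6 and 11. Argonaute is known to prefer U or A at this position, and the strand whose 5′ end is less tightly paired in the duplex is known to be favoured as the guide. Yet counting A and U in the first 4 bases, the guide had more in 18 pairs, the star in 15, and 14 were equal. Of the detected stars, miR-140* begins with U and its guide with C, as the sequences above show, while miR-378* and miR-30a* begin with C.

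Stars came from the 3′ arm in 33 of 52 cases and from the 5′ arm in 19. Over the 47 pairs with both arms in RefSeq, the median GC content was 50% for stars, ranging from 27.3% to 72.7%, and 45.5% for guides. A shared seed was found for 3 pairs of stars, miR-99a* with miR-99b*, miR-24-1* with miR-24-2*, and miR-30c-1* with miR-30c-2*, and none of these 6 was detected. These sequence features are descriptions of the named strands, and hairpins of 1 family are not independent of each other.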

How the data were processed

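Cy3-labelled RNA was hybridised to 2 Agilent 1-colour miRNA arrays on 1 slide. The deposited intensity values per spot come from Agilent Feature Extraction 10.5.1.1, as the authors ran it with spatial detrending and background subtraction, per the file headers. They carry no normalization between arrays. The deposited value table is in linear intensity: of the 58 stars, the 19 and 17 at or above 1 equalled the software's total gene signal within 1e-06, the others were set to 1, and its column medians were 1.70 and 1.32. The table is not centred and holds no ratios.

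Spots marked as outliers were left out (34 and 41 star spots), the remaining spots of a probe were averaged on the linear scale, and no spot was saturated. Scaling divided each array by the 75th percentile of probes that both arrays detected, a floor was set at each array's dimmest detected probe, and log2 was taken. A ratio is the mean over probes detected on both arrays. The guide is the same name without the star, with a locus number dropped for 6 stars. Named stars are those detected, and per array the 3 undetected stars with the highest share of spots well above background. Other names (miR-296*, the remaining miR-30 stars, stars of bright or shifted guides) were chosen after their values were seen. Members, lists and groups were chosen with earlier results of these data known. Alternatives covered scaling (all probes, none), normexp at an offset of 50 (limma 3.58.1), the deposited table, other detection rules, outlier spots kept, odd or even spots, and the brightest probe. The steps were tested on simulated data. Python 3.11.15 and R 4.3.3 were used. The arrays' grid names build rn4, and sequences and coordinates are RefSeq's for GRCr8. The number of arrays limits the precision.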

Additional observations from a re-analysis of the deposited data

Results flagged for a closer look

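The scanner software's own detection call, which was not used for the counts, marked 3 further stars that the rule on spots did not. On each array where they were marked, their mean signals lay above the highest mean of any kind of negative control. That highest mean was 3.67 units on the tumour-labelled array and 3.72 on the normal-labelled array. Such a signal was not particular to these stars. The call left others above these limits unmarked, among them let-7b* at 7.72 units on the tumour-labelled array and 9.23 on the normal-labelled array. On the tumour-labelled array it marked miR-126* with a total gene signal of 20.6 (mean signal 15.5 units), miR-29c* with 19.8 (mean signal 14.9) and miR-296* with 13.7 (mean signal 10.4). On the normal-labelled array it marked miR-296* with a total gene signal of 14.2 (mean signal 10.7).

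The star miR-296* differs from the other 2, since its probes read nearly the same on both arrays, 7.73 and 12.99 units against 8.46 and 12.9, with 0 spots well above background on either. Its guide miR-296 was not detected on either array.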

How the results depend on the processing

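No paired analysis was possible because each group has 1 array. With the software's own detection call, 7 stars were detected on the tumour-labelled array, 2 on the normal-labelled array and 2 on both. With 1 scaled detection limit for both arrays 3 stars were detected on the tumour-labelled array, without miR-140*, and 0 on both. With odd spots only there were 5, miR-29c* included. The counts stayed at 4, 1 and 1 with the same stars when all spots of a probe had to be well above background, with outlier spots kept and with even spots only. Detection was not recounted for the changes of scaling, normexp, the deposited table or the brightest probe, since the call rests on the software's flags. Among stars with a ratio from both arrays, 0 reached 2-fold higher under the 11 alternatives. This count leaves out stars with only a lower bound, of which miR-378* passed 2-fold in the main setting and miR-378*, miR-30a* and miR-30e* all did without scaling. The 1 star at least 2-fold lower, miR-140*, became 0 with the 75th percentile over all probes (log2 ratio -0.62), without scaling (-0.18), with normexp (-0.86) and with 1 scaled detection limit. Its log2 ratio ran from -1.42 to -0.18 and the star minus guide difference from -0.50 to -0.14, while the guide miR-140 reversed to 0.19 without scaling. The cause of these changes was not tested beyond the construction of each setting. Lower bounds ran from 1.02 to 4.18-fold for miR-378*, and with normexp those of miR-30a* (0.85) and miR-30e* (0.77) fell under 1, which gives no fold. With normexp the guides miR-378 and miR-30e were at log2 ratios of 0.81 and 0.86, under 2-fold. Signals near the dimmest detected probe, such as those of miR-29c* and miR-126*, are those whose detection call moves with the rule.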
